A study of Mus musculus with 24 samples.

Results

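The tumour suppressor p53, encoded by Trp53, and 9 genes that it is known to activate were followed by symbol through all 24 RNA libraries: Cdkn1a, Mdm2, Bax, Ccng1, Phlda3, Sesn2, Trp53inp1, Eda2r and Gadd45a. These were 10 of the 55254 genes counted, and all 10 were present for NeuN+ and for NeuN-. The question was whether the loss of OGG1, MUTYH or both, which act in base excision repair, is accompanied by a transcriptional p53 response in neurons or in glia. Hippocampi came from male C57BL/6N mice aged 6 months that were WT, Mutyh-/-, Ogg1-/-, or DKO, the last bred from the other knockouts and lacking both genes. Flow cytometry separated nuclei that bound an antibody to NeuN, the product of Rbfox3 found in nuclei of most neurons (NeuN+), from those that did not (NeuN-), and nuclear RNA was sequenced from 3 replicates per genotype and fraction. The labels name home-cage housing for all groups and neither a treatment nor a driver that would limit a knockout to a cell type. Nuclei for this RNA were pooled from 3 animals per genotype by the RNA methods, and the sorting methods give 5 per pool. The study's statistics section speaks in general of independent biological replicates, but whether those of this RNA are animals, pools or parts of a pool is not stated, and p-values measure only the spread between these libraries, which may be technical.

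p53 is a transcription factor that is kept scarce by MDM2, a ubiquitin ligase that marks it for degradation. DNA damage kinases stabilise the protein, which then binds paired short motifs near its targets and switches on genes for cell cycle arrest, repair, metabolism and cell death, Mdm2 itself among them. Because p53 is controlled mainly at the level of the protein, the RNA of its targets is a more direct readout of its activity than the RNA of Trp53. OGG1 removes the oxidised base 8-oxoguanine from DNA, and MUTYH removes adenine inserted opposite it during replication. The study holds that MUTYH is not needed for this repair in neurons, which no longer divide.

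Total counts ranged from 56563586 to 96192142 per library, with a median of 70434612. The fractions carried the markers of their names. The 8 neuronal markers summed to between 5637 and 6609 CPM (counts scaled by the effective library size) in NeuN+ libraries and to between 379 and 540 CPM in NeuN- libraries. The 5 oligodendrocyte markers ranged from 117 to 140 CPM in NeuN+ and from 4501 to 6765 CPM in NeuN-. Choroid plexus markers were uneven among NeuN- libraries and ranged from 7.2 to 220 CPM within DKO. The NeuN+ and NeuN- libraries were sequenced on different lanes, so a difference by lane and one by cell type cannot be told apart. RNA of the targeted genes did not show a loss. Mutyh was higher in the libraries labelled Mutyh-/- (NeuN+ 11.4, 11.5 and 9.88 CPM) than in WT (1.15, 1.28 and 1.27 CPM), with a log2 fold change of 3.15 ± 0.15 (SE), and higher by 2.99 ± 0.15 in those labelled DKO. In NeuN- its log2 fold changes were 1.85 ± 0.11 and 1.61 ± 0.11. Ogg1 differed from WT by 0.049 ± 0.11 in the NeuN+ libraries labelled Ogg1-/- and by 0.018 ± 0.094 in NeuN-, and 232 bases of its exons lie opposite the gene Camk1. Counts per gene do not show which exons were read, and the genotypes are named throughout as labelled.

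The DNA around the starts of these genes differed in its matches to the p53 motif, and p53 binding was not measured. In the RefSeq promoter windows (250 bases before to 50 after each start, GRCm38.p6), 9 of the 10 genes had an entry. The p53 motif was searched by its consensus decamer of 10 bases, which reads alike on both strands and occurs in pairs in a full site. A decamer was present for 6 of these 9 genes (66.7%), against 9.55% of the 27025 genes with a window and 29.2% of 24 further p53 targets. A pair of decamers with a spacer of up to 13 bases was present for Cdkn1a alone among the 9, against 20 genes (0.074%) of all and 0 of the 24 further targets. The Cdkn1a stretch is shown because Cdkn1a, an inhibitor of cyclin-dependent kinases, is the classical arrest target. It lies at chr17:29090879-29090978 on the plus strand, directly before the upstream of the 2 Cdkn1a starts with a window. Capitals mark the decamers, which are separated by 12 bases:
Cdkn1a: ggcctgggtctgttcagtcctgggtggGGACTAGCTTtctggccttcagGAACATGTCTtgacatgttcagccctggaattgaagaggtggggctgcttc
The decamers of the other 5 genes are shown with 10 bases on either side, read along the strand of the gene, since each of these promoters had a lone decamer in the window:
Trp53: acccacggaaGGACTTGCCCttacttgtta
Mdm2: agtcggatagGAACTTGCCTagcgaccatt
Bax: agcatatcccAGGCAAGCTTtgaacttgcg
Ccng1: agacctgcccGGGCAAGCCTtggcactgaa
Gadd45a: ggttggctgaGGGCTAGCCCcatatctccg
In the Ccng1 window, a 20-base site made of adjoining decamers was complete but for 1 mismatch (lower case in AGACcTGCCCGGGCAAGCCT), and the same held for Cdkn1a (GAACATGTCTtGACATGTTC). Such a site with at most 1 mismatch was present for 29 of the 27025 genes (0.107%) and for 0 of the 24 further targets. The match describes these letters and this window only, and sites elsewhere in a gene, such as in an intron, were not searched.

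RNA levels of the genes spanned a wide range within WT nuclei. Per kilobase of exon, Mdm2 was the most abundant in WT NeuN+ nuclei at 5.9 ± 0.237 CPM per kilobase (SD, n = 3), and Eda2r, a receptor of the tumour necrosis factor receptor family, the least at 0.0212 ± 0.00424. Between them came Bax at 4.15 ± 0.325, Trp53 at 2.12 ± 0.136, Ccng1 at 2.07 ± 0.13, Sesn2 at 1.3 ± 0.0762, Trp53inp1 at 0.83 ± 0.0601, Gadd45a at 0.685 ± 0.129, Phlda3 at 0.289 ± 0.0917 and Cdkn1a at 0.141 ± 0.0393 CPM per kilobase. The libraries overlapped between the neighbours Trp53 and Ccng1 and between Trp53inp1 and Gadd45a, and not between the other neighbours. In WT NeuN- nuclei the order was Mdm2 at 9.25 ± 0.132, Trp53 at 6.69 ± 0.431, Bax at 4.85 ± 0.367, Phlda3 at 4.54 ± 0.142, Trp53inp1 at 2.18 ± 0.127, Ccng1 at 1.95 ± 0.111, Sesn2 at 1.24 ± 0.164, Gadd45a at 1.1 ± 0.121, Eda2r at 0.458 ± 0.0758 and Cdkn1a at 0.183 ± 0.0643 CPM per kilobase. There Bax overlapped with Phlda3, and Sesn2 with Gadd45a. Cdkn1a was thus near the bottom of the list in both fractions, with 21 to 51 counts per NeuN+ library and 22 to 80 per NeuN- library.

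**Figure D1:**
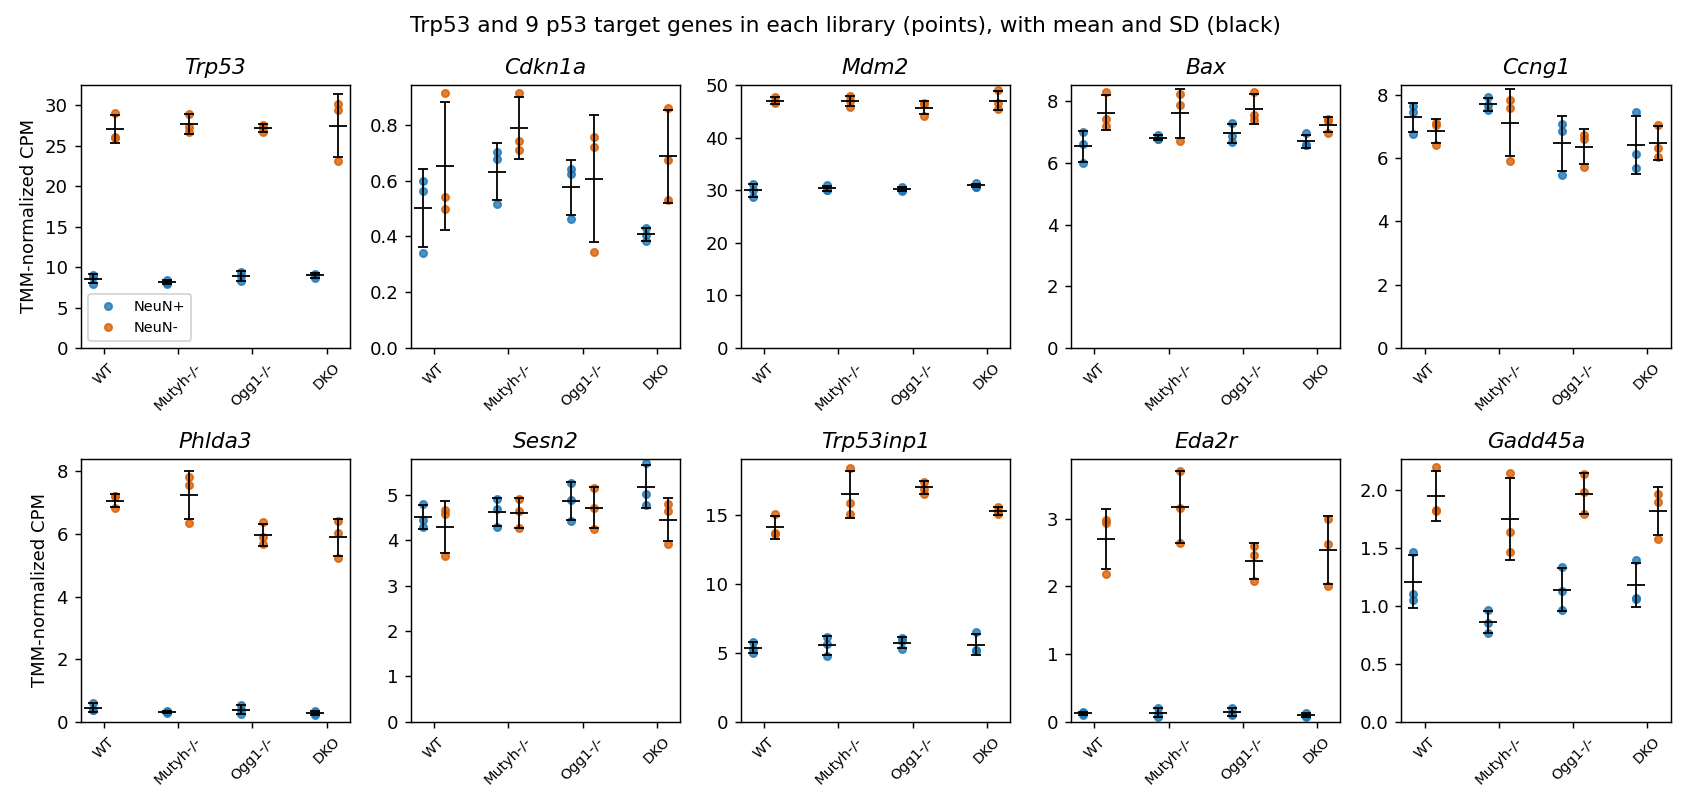
Level of each of the 10 genes (y axis, TMM-normalized CPM from 0, a separate scale for each gene) in every library (points) of the 4 genotypes (x axis), NeuN+ in blue and NeuN- in orange, with the mean and SD of 3 libraries in black. Trp53, Mdm2, Phlda3, Trp53inp1, Eda2r and Gadd45a lie lower in NeuN+ without overlap at every genotype, whereas the genotypes of a fraction mostly overlap.

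Trp53, Phlda3, Trp53inp1 and Eda2r were lower in neuronal than in non-neuronal nuclei of WT mice, and 0 genes of the set were called higher. These were the 4 of 10 genes called lower in NeuN+ by the rule used for cell types (edgeR quasi-likelihood test, Benjamini-Hochberg adjusted p under 0.05 together with a log2 difference of more than 1 in either direction). Eda2r passed the low-count filter of this fit only through its NeuN- libraries, where it is high, and a gene like it could enter only if it differed. Without it 3 of 9 genes were called lower. Over all 33523 genes tested, 21.6% were lower and 21.3% higher by that rule. By the adjusted p alone 7 of the 10 were lower, against 36.3% of all genes, and the median log2 difference of the 10 was -0.67, against -0.014 over all genes. Among genes that passed the filter in each fraction on its own, a restriction chosen after seeing the data, 17.7% of all were called lower and 20.1% higher. By the adjusted p alone 6 of the 9 remaining genes of the set were lower there, against 35% of all, with a median of -0.65 against 0.032. In bulk nuclei, fewer cells of a type and less RNA per cell cannot be told apart.

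Trp53 itself was among the lower genes. Its CPM was 8.73, 7.96 and 9.02 in the WT NeuN+ libraries and 29.1, 26 and 26.1 in WT NeuN-, so the fractions did not overlap. The log2 difference was -1.66 ± 0.082 (SE, adjusted p = 2.02e-14, edgeR), a level in neurons 0.316 times that in the other nuclei. Phlda3, which encodes a protein that restrains the kinase AKT at the membrane, measured 0.373, 0.616 and 0.363 CPM in NeuN+ and 7.2, 7.2 and 6.82 CPM in NeuN-, which is a log2 difference of -3.97 ± 0.19 (adjusted p = 7.87e-15, edgeR). Trp53inp1, whose product promotes the activating phosphorylation of p53, measured 5.79, 5.02 and 5.3 CPM in NeuN+ and 13.6, 13.7 and 15.1 CPM in NeuN-, which is a log2 difference of -1.40 ± 0.10 (adjusted p = 1.20e-11, edgeR). Each of these genes was lower in every NeuN+ library than in any NeuN- library. Eda2r measured 0.0973, 0.146 and 0.132 CPM in NeuN+ and 2.98, 2.18 and 2.93 CPM in NeuN-, which is a log2 difference of -4.42 ± 0.28 (adjusted p = 1.52e-12, edgeR). It had 4 to 17 counts in each NeuN+ library.

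The remaining targets were closer between the fractions. Mdm2 measured 30.1, 28.7 and 31.1 CPM in WT NeuN+ and 46.8, 46.5 and 47.8 CPM in WT NeuN-, lower in neurons by a log2 difference of -0.65 ± 0.042 (adjusted p = 2.83e-12, edgeR), below the limit of 1. Gadd45a, a stress-induced protein of growth arrest and repair, differed by -0.69 ± 0.17 (adjusted p = 0.00103, edgeR). Bax, which forms pores in the outer mitochondrial membrane, differed by -0.23 ± 0.081 (adjusted p = 0.016, edgeR). The adjusted p of Bax was 0.0977 without WT NeuN+ replicate 1 and 0.104 without WT NeuN- replicate 1, and from 0.0064 to 0.104 over all alternatives, so that its difference rests on those libraries. Cdkn1a (-0.38, 95% interval -0.98 to 0.22), Ccng1, the cyclin G1 gene (0.09, -0.15 to 0.33), and Sesn2, whose product sestrin 2 restrains mTORC1 signalling (0.072, -0.16 to 0.30), did not pass the adjusted p. The difference between the fractions was therefore gene by gene and not common to all 10.

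**Figure D2:**
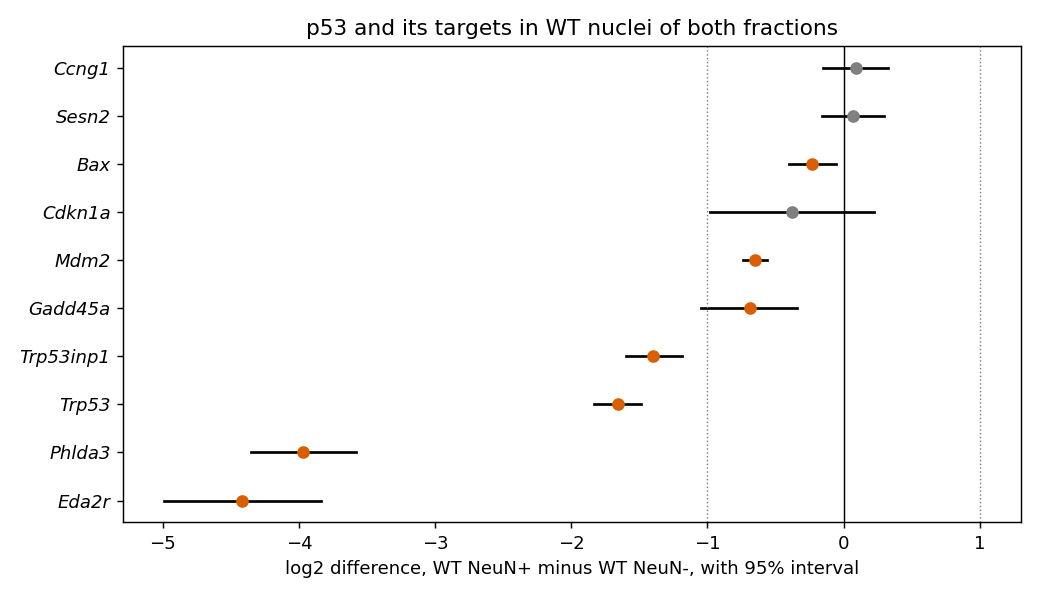
Log2 difference between WT NeuN+ and WT NeuN- (x axis, negative where NeuN+ is lower) for the 10 genes (y axis), with 95% intervals not adjusted for the number of genes. Orange points have an adjusted p under 0.05, grey points do not, and dotted lines mark a log2 difference of 1 in either direction, which Trp53inp1, Trp53, Phlda3 and Eda2r pass.

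Against WT, no gene of the p53 set passed the test in neuronal nuclei of any knockout. By the rule used for genotypes (edgeR quasi-likelihood test, adjusted p under 0.05 together with a log2 fold change of more than 0.5 in either direction), 0 of the 9 genes tested in NeuN+ were called in Mutyh-/-, in Ogg1-/- or in DKO. Over all 30132 genes tested, 0.428%, 0.574% and 0.302% were called in these comparisons. The count of 0 of 9 is close to that background, so the intervals of the fold changes are given for each gene. DESeq2 and edgeR's likelihood ratio test also called 0 of them. At an unadjusted p under 0.05, 1 gene was found in Mutyh-/- and 0 in Ogg1-/- and DKO, against 18.7%, 12.3% and 13.5% of all genes. The median log2 fold change of the 9 genes was 0.044, 0.037 and 0.022, against -0.0086, 0.0086 and -0.00053 over all genes.

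The negative feedback gene and p53 itself gave the narrowest limits. Mdm2 in NeuN+ measured 30.9, 30.1 and 30.1 CPM in Mutyh-/-, 29.8, 30.1 and 30.6 CPM in Ogg1-/- and 30.7, 30.7 and 31.3 CPM in DKO, all within or close to the WT range. Its log2 fold changes lay between -0.0076 and 0.029 (adjusted p from 0.845 to 0.97, edgeR), and the highest 95% bound of the 3 was a 1.1-fold level. Trp53 measured 8.44, 7.9 and 8.09 CPM in Mutyh-/-, 8.25, 9.42 and 8.97 CPM in Ogg1-/- and 9.2, 8.68 and 9.05 CPM in DKO, overlapping with WT in each case. Its highest bound was 1.16-fold.

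The arrest genes were less abundant and less certain. Cdkn1a measured 0.341, 0.599 and 0.561 CPM in WT NeuN+. It measured 0.701, 0.678 and 0.516 CPM in Mutyh-/-, 0.64, 0.464 and 0.625 CPM in Ogg1-/- and 0.385, 0.404 and 0.431 CPM in DKO. Every knockout group overlapped with WT, and the log2 fold changes of 0.33 ± 0.25, 0.18 ± 0.24 and -0.31 ± 0.25 (SE, adjusted p from 0.506 to 0.837, edgeR) did not have the same sign. At this depth a rise of Cdkn1a of up to 1.8-fold lies inside the widest interval. Gadd45a was the gene below an unadjusted p of 0.05: it measured 1.05, 1.1 and 1.47 CPM in WT and 0.771, 0.852 and 0.962 CPM in Mutyh-/-, with a log2 fold change of -0.48 ± 0.20 (adjusted p = 0.212, edgeR). All 3 Mutyh-/- libraries were below WT, and Ogg1-/- (-0.10) and DKO (-0.056) overlapped with it. In that gene 337 exon bases lie opposite another gene, E230016M11Rik, and in Cdkn1a 273 lie opposite AC167363.2. In Bax 192 exon bases overlap with those of Gm45808 on the same strand.

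The death, metabolic and signalling targets did not pass the test either. Bax had log2 fold changes between 0.022 and 0.074, with a highest bound of 1.18-fold, and Sesn2 between 0.044 and 0.18, with a highest bound of 1.31-fold. Trp53inp1 lay between 0.043 and 0.084 and Ccng1 between -0.20 and 0.084, each with a highest bound of 1.25-fold. Phlda3 had the lowest values, -0.51 ± 0.33 in Mutyh-/-, -0.26 ± 0.31 in Ogg1-/- and -0.68 ± 0.32 in DKO (adjusted p from 0.38 to 0.806, edgeR), on 16 to 43 counts per library. Its Mutyh-/- libraries (0.28, 0.31 and 0.349 CPM) and DKO libraries (0.292, 0.346 and 0.215 CPM) lay below all WT libraries. Glial markers were measured beside it. In NeuN+ of DKO, 4 of 5 oligodendrocyte markers (median log2 fold change -0.43), 3 of 3 precursor markers (-0.47) and 6 of 6 astrocyte markers (-0.25) were below WT, and in Mutyh-/- 3 of 5 (-0.19), 3 of 3 (-0.14) and 6 of 6 (-0.22). In Ogg1-/- these were 2 of 5 (0.0071), 2 of 3 (-0.20) and 6 of 6 (-0.10). None of these markers passed the adjusted p in NeuN+ or was at 0, the summed oligodendrocyte markers ranged from 119 to 123 CPM in WT and from 117 to 132 CPM in DKO with overlap, and the markers' part in the level of Phlda3 was not tested. Eda2r was too rare for the test in NeuN+. Fitted without the low-count filter, its log2 fold changes were 0.11 ± 0.51, 0.18 ± 0.49 and -0.31 ± 0.52 (adjusted p = 1, 0.963 and 0.92, edgeR), with intervals that reach from -1.37 to 1.17.

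Counted by non-overlap of 3 and 3 libraries, 2 genes were lower and 0 higher in Mutyh-/- (Phlda3 and Gadd45a), 0 differed in Ogg1-/-, and 1 was lower in DKO (Phlda3). Of all tested genes, 21.6%, 20.1% and 17.5% did not overlap in these comparisons, in either direction. No gene of the set was higher than WT in this sense in any knockout of NeuN+. Of the 27 tests, 25 had an upper 95% bound under 1.5-fold and all 27 under 2-fold. Eda2r, whose unfiltered intervals reached a log2 fold change of 1.17, is not among these tests. Knockouts were also compared with each other, in the same fit as the WT libraries. The NeuN+ genes were not called in DKO against Ogg1-/-, in DKO against Mutyh-/- or in Ogg1-/- against Mutyh-/-, where 0.216%, 0.139% and 0.485% of all genes were. The unadjusted p was under 0.05 for 0, 3 and 1 of the 9 genes, against 4.26%, 6.86% and 12.7% of all genes. In DKO against Mutyh-/- these were Cdkn1a (-0.64 ± 0.25, adjusted p = 0.652), Ccng1 (-0.28 ± 0.11, adjusted p = 0.653) and Gadd45a (0.42 ± 0.19, adjusted p = 0.723, all edgeR).

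**Figure D3:**
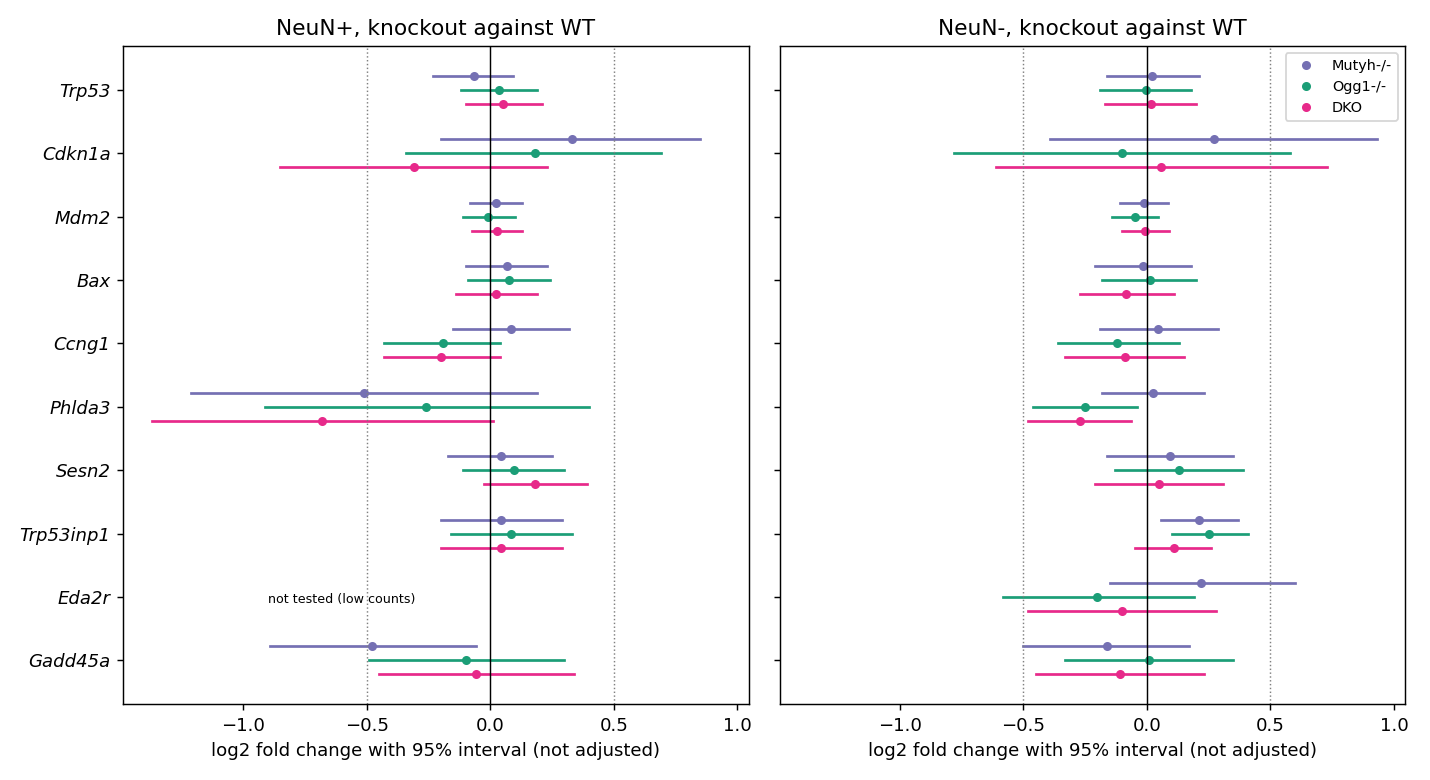
Log2 fold change against WT (x axis) of the 10 genes (y axis) in the libraries labelled Mutyh-/-, Ogg1-/- and DKO, for NeuN+ (left) and NeuN- (right), with 95% intervals not adjusted for the number of genes. Dotted lines mark 0.5 in either direction. The intervals of Mdm2 and Trp53 lie inside the lines in all 6 comparisons, and those of Cdkn1a reach past a line in all 6, as do those of Phlda3 in NeuN+.

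In NeuN- nuclei, where all 10 genes were tested, none passed the test against WT. By the same rule 0 of 10 were called in Mutyh-/-, in Ogg1-/- or in DKO, against 0.273%, 0.229% and 0.116% of the 31863 genes tested. DESeq2 and the likelihood ratio test called 0 as well. The unadjusted p was under 0.05 for 1, 2 and 1 of the 10, against 13.7%, 11.8% and 12.4% of all genes, so these counts lie near the background. The median log2 fold change of the 10 was 0.037, -0.026 and -0.045, against -0.0052, 0.00085 and 0.0066 over all genes.

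Mdm2 in NeuN- measured 47.9, 45.9 and 46.9 CPM in Mutyh-/-, 46.4, 44.2 and 46.5 CPM in Ogg1-/- and 49, 46.6 and 45.4 CPM in DKO. Its log2 fold changes lay between -0.048 and -0.0059, with a highest bound of 1.06-fold. Trp53 lay between -0.0032 and 0.023, with a highest bound of 1.16-fold, and its 12 libraries ranged from 23.1 to 30.2 CPM. Cdkn1a measured 0.541, 0.497 and 0.913 CPM in WT and ranged from 0.345 to 0.914 CPM over all NeuN- libraries. The log2 fold changes of Cdkn1a were 0.27 ± 0.30, -0.10 ± 0.31 and 0.058 ± 0.31 in Mutyh-/-, Ogg1-/- and DKO (adjusted p from 0.749 to 0.957, edgeR), and every group overlapped with WT. Its highest bound of 1.9-fold was the widest of the set.

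Trp53inp1 was the gene with the smallest p in glia-rich nuclei. It measured 13.6, 13.7 and 15.1 CPM in WT, 15.9, 18.4 and 15.1 CPM in Mutyh-/-, 16.5, 17.4 and 16.9 CPM in Ogg1-/- and 15.6, 15.2 and 15.1 CPM in DKO. All 9 knockout libraries were above the 3 WT libraries, 2 of them by less than the rounding of these values. Its log2 fold changes against WT were 0.21 ± 0.071, 0.25 ± 0.071 and 0.11 ± 0.071 for Mutyh-/-, Ogg1-/- and DKO. The adjusted p-values were 0.235, 0.193 and 0.559 (edgeR), and the first 2 of these tests were under 0.05 before adjustment. None passed the adjusted threshold, and the 3 comparisons share their WT libraries. Beside these values, the 6 astrocyte markers summed to between 2789 and 3314 CPM in WT, 2853 and 3745 CPM in Mutyh-/-, 3247 and 4112 CPM in Ogg1-/- and 3468 and 3628 CPM in DKO, with no marker at 0. Gene by gene, 3 of the 6 were above and 3 below WT in Mutyh-/- (median log2 fold change 0.018), and all 6 were above in Ogg1-/- (0.25) and in DKO (0.25). All 8 neuronal markers were below WT in NeuN- of Mutyh-/-, Ogg1-/- and DKO (median log2 fold changes -0.13, -0.28 and -0.30). None of these 8 passed the adjusted p. The part of these marker differences in the level of Trp53inp1 was not tested.

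Phlda3 went the other way in 2 of the knockouts. It measured 7.2, 7.2 and 6.82 CPM in WT and 7.56, 7.81 and 6.36 CPM in Mutyh-/-, and 6.37, 5.67 and 5.92 CPM in Ogg1-/- and 6.03, 6.4 and 5.24 CPM in DKO. The last groups did not overlap with WT. The log2 fold changes were 0.027 ± 0.094, -0.25 ± 0.10 (adjusted p = 0.323) and -0.27 ± 0.10 (adjusted p = 0.303, all edgeR). The 5 oligodendrocyte markers were also lower in those groups, at 5045 to 5667 CPM in Ogg1-/- and 4501 to 5578 CPM in DKO, against 5911 to 6645 CPM in WT and 5505 to 6765 CPM in Mutyh-/-. None of the 5 was at 0, and their part in the level of Phlda3 was not tested.

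The libraries of the other targets overlapped with WT in each knockout. Bax lay between -0.083 and 0.011 on the log2 scale, Ccng1 between -0.12 and 0.047, Sesn2 between 0.048 and 0.13, and Gadd45a between -0.16 and 0.0075, with highest bounds of 1.15-fold, 1.22-fold, 1.31-fold and 1.27-fold. Eda2r measured 2.98, 2.18 and 2.93 CPM in WT, 3.7, 3.16 and 2.64 CPM in Mutyh-/-, 2.46, 2.08 and 2.59 CPM in Ogg1-/- and 2.63, 2.99 and 2 CPM in DKO. Its groups overlapped, with log2 fold changes of 0.22 ± 0.17, -0.20 ± 0.18 and -0.10 ± 0.17 and a highest bound of 1.51-fold. Without overlap of the libraries, 1 gene was higher and 0 lower in Mutyh-/-, and 1 was higher and 1 lower in Ogg1-/- and in DKO, against 19.2%, 19.4% and 16.8% of all genes in either direction. Of the 30 tests, 27 had an upper 95% bound under 1.5-fold and all 30 under 2-fold.

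Between knockouts in NeuN-, 0 of the 10 genes were called in DKO against Ogg1-/-, DKO against Mutyh-/- or Ogg1-/- against Mutyh-/-, against 0.132%, 0.122% and 0.521% of all genes. The unadjusted p was under 0.05 for 0, 1 and 2 of the 10, against 4.34%, 11% and 11.5% of all genes. Phlda3 had the smallest p in the last 2 comparisons, at -0.30 ± 0.10 (adjusted p = 0.32) and -0.28 ± 0.10 (adjusted p = 0.272, both edgeR). The effect of a genotype also did not differ detectably between the fractions for any gene of the set. In the test of that difference 0 of 10 were called for Mutyh-/-, Ogg1-/- and DKO, against 0.0209%, 0.0537% and 0.0567% of all genes called by the adjusted p. The unadjusted p was under 0.05 for 0 of 10 in each, against 8.58%, 7.09% and 9.4% of all genes. DESeq2 and the likelihood ratio test also called 0. The largest difference was that of Phlda3 in Mutyh-/-, -0.55 ± 0.30 with an interval of -1.17 to 0.069 (adjusted p = 0.638, edgeR).

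No gene of the surrounding pathway passed the test against WT. Of 18 upstream regulators of p53, 16 further targets for arrest and repair, 16 further targets for cell death, 11 genes of the integrated stress response and 12 cell cycle genes, 0 were called against WT in either direction in any of the 6 comparisons (edgeR), and 0 had an adjusted p under 0.05. Sesn2 belongs to the p53 set and is counted again in the stress response list. The list of regulators also holds Trp63 and Trp73, which are relatives of p53. Over all genes, the unadjusted p was under 0.05 in 12.3% to 18.7% in the comparisons of NeuN+ and in 11.8% to 13.7% in those of NeuN-. It was so in 6 of 51 tests of the regulators in NeuN+ and 4 of 54 in NeuN-. For the arrest and repair targets it was in 9 of 48 and 4 of 48 tests, and for the death targets in 2 of 39 and 9 of 48. For the stress response it was in 3 of 33 tests in each fraction, and for the cell cycle in 4 of 21 and 5 of 36. On the log2 scale, the medians of both target lists lay between -0.053 and 0.059 in the 6 comparisons, and those of the regulators between -0.015 and 0.021. The death list mixes genes that promote cell death with Bcl2, Bcl2l1 and Mcl1, which restrain it. Its median therefore cannot show whether these kinds of gene moved apart. The short lists reached farther, with medians of the stress response from -0.15 (Ogg1-/- NeuN+) to 0.089 (Mutyh-/- NeuN-) and of the cell cycle genes from -0.065 (Mutyh-/- NeuN-) to 0.20 (Mutyh-/- NeuN+, 7 of 12 genes tested).

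The most extreme genes of these lists did not pass the test either. Trp73, a relative of p53, measured 2.5, 2.32 and 2.69 CPM in WT NeuN+ and 1.82, 1.36 and 1.42 CPM in Mutyh-/-, with a log2 fold change of -0.70 ± 0.17 (adjusted p = 0.0716, edgeR). Bid, which links death receptors to mitochondria, measured 10.6, 9.96 and 9.1 CPM in WT NeuN- and 7.18, 6.29 and 7.13 CPM in Ogg1-/-, with a log2 fold change of -0.54 ± 0.11 (adjusted p = 0.0742, edgeR). In both cases the libraries did not overlap. The largest value was that of Cdkn2a in DKO NeuN-, at 1.26 ± 0.49 (adjusted p = 0.339, edgeR). There 1 library had 0.712 CPM and the others 0.285 and 0.229 CPM, against 0.221, 0.152 and 0.126 CPM in WT. ARF, which inhibits MDM2, is 1 of the products of Cdkn2a, and counts per gene do not tell these products apart. Fas, a death receptor, was at 0.57 ± 0.26 in DKO NeuN- (adjusted p = 0.403), with 2.7 CPM in 1 library against 1.38 and 1.37 CPM in the others. Among arrest targets Psrc1 was at 0.41 ± 0.12 in Mutyh-/- NeuN+ (adjusted p = 0.113) and Rprm at -0.65 ± 0.19 in Ogg1-/- NeuN+ (adjusted p = 0.135). Trib3 of the stress response was at 0.76 ± 0.41 in Mutyh-/- NeuN- (adjusted p = 0.443) and at -0.50 ± 0.38 in Ogg1-/- NeuN+ (adjusted p = 0.663). Of the cell cycle genes, Ccnb1 was at 0.82 ± 0.39 in Ogg1-/- NeuN- (adjusted p = 0.442) and Mcm2 at -0.54 ± 0.20 in Mutyh-/- NeuN+ (adjusted p = 0.179, all edgeR).

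**Figure D4:**
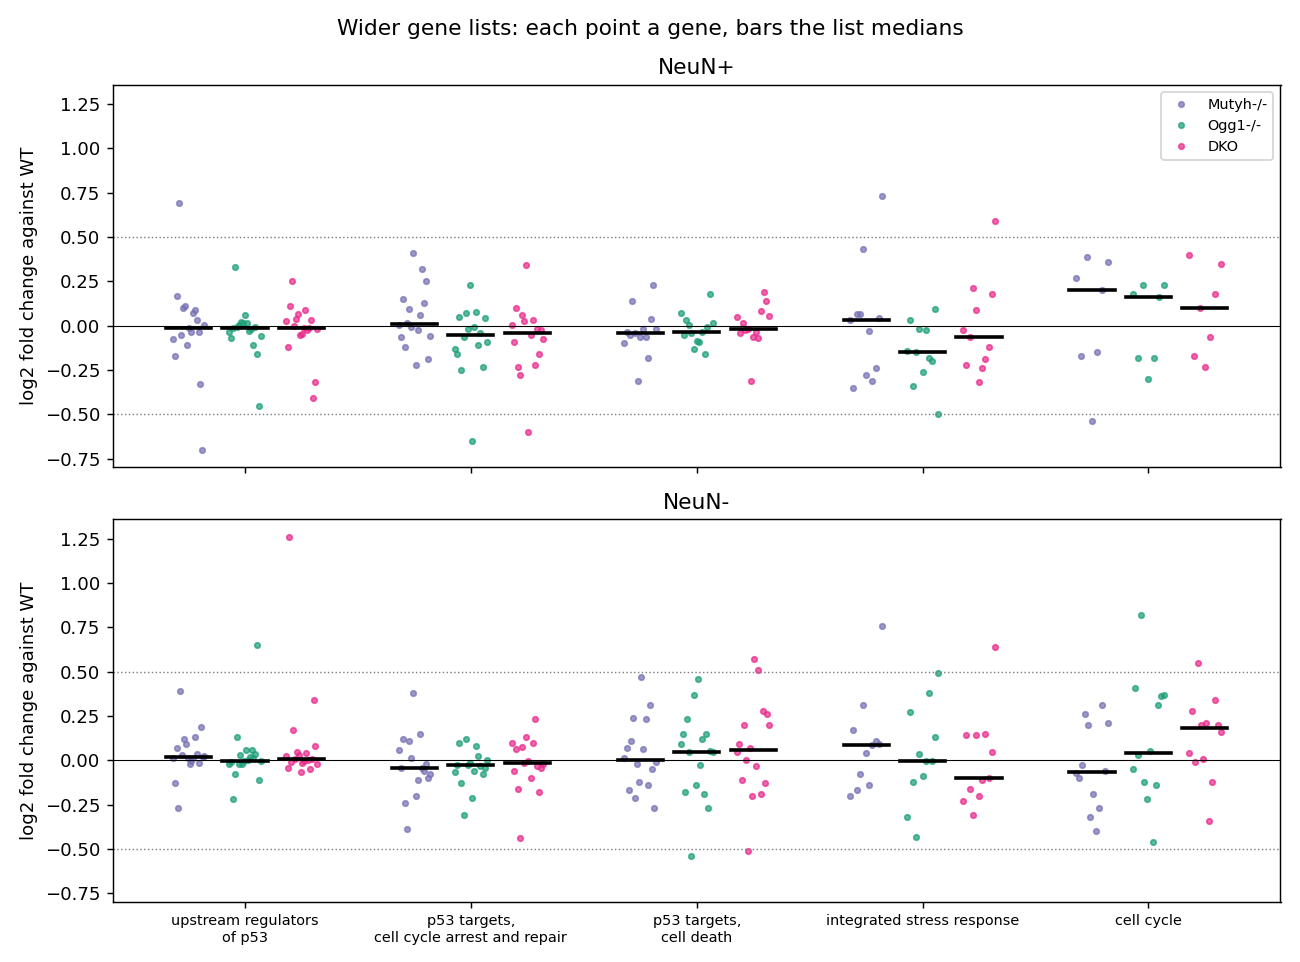
Log2 fold change against WT (y axis) of every tested gene of 5 wider lists (x axis), by knockout (colour), for NeuN+ (top) and NeuN- (bottom), with list medians as black bars and dotted lines at 0.5 in either direction. Medians of both target lists lie between -0.053 and 0.059, and the highest point is Cdkn2a in DKO NeuN- at 1.26.

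The genes whose levels most resembled those of the central members over the 24 libraries were found by the root mean square difference of log2 CPM, each gene centred on its mean. For Trp53 they were Cdk5rap2 (0.072), Pts (0.077) and Scarb2 (0.081), and for Mdm2 Ccm2 (0.046), Ubxn7 (0.048) and Mettl23 (0.050). For Cdkn1a the closest were Opa3 (0.234), Gm45867 (0.235) and 9930024M15Rik (0.239), several times farther off than for Trp53 or Mdm2. All libraries of a fraction share its NeuN staining and lanes, so likeness in this measure follows the difference between fractions first. In position, Sesn2 and Trp53inp1 lie on the chromosome of Mutyh (chromosome 4), 15.67 and 105.63 Mb from it, and Gadd45a lies on that of Ogg1 (chromosome 6), 46.29 Mb away.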

How the data were processed

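The authors aligned read pairs to GRCm38 with HISAT2 2.1.0, counted them per Ensembl gene with featureCounts and deposited raw counts of 24 libraries, 3 per genotype and fraction (R 4.3.2, edgeR 3.42.4 and SAMtools 1.10 per the submitters' notes). Strand, overlap and multiple-mapping settings of the counting are not given in the sources used here, so reads of overlapping genes cannot be told apart.

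From these counts, genes were filtered with filterByExpr, scaled by TMM and tested with edgeR's quasi-likelihood test (edgeR 4.0.16, limma 3.58.1, R 4.3.3) with Benjamini-Hochberg adjustment over all tested genes. All 12 libraries of a fraction entered 1 fit with a group for each genotype, and all 24 the fits across fractions. edgeR's biological coefficient of variation came to 0.0823 (NeuN+), 0.124 (NeuN-) and 0.105 (all libraries). CPM values use the TMM factors of the 24 libraries, exon lengths and positions come from GENCODE vM21 by symbol, and promoter sequences from RefSeq. Intervals are 95% intervals, not adjusted for multiple tests. The genes and lists were chosen with earlier results of these data known. Named from the wider lists are genes with an adjusted p under 0.05 and, in each direction, that of the largest fold change against WT. Scripts were tested on simulated data. Alternatives were RLE size factors, other filters, the likelihood ratio test, DESeq2 1.42.0, a replicate block, fits of 2 groups, fits without 1 library and the adjusted p alone.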

Additional observations from a re-analysis of the deposited data

How the results depend on the processing

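In the 12 comparisons between genotypes, 0 genes of the p53 set were called in the fits reported or in any of 156 alternative fits, with the fold limit or by the adjusted p alone. Between WT fractions 4 genes were called, 3 with at least 10 counts in every library, which leaves Eda2r untested, and 7 by the adjusted p alone. Restricted to genes that passed the filter in each fraction, which was chosen after seeing the data, 3 were called. Counts over all genes moved more. In Mutyh-/- NeuN+ against WT 129 genes were called, and 62 without WT replicate 2 or 837 without Mutyh-/- replicate 3. In Mutyh-/- NeuN- 87 were called, and 31 without WT replicate 1 or 435 without Mutyh-/- replicate 3. In Ogg1-/- the counts were 173 (70 to 332) in NeuN+ and 73 (50 to 179) in NeuN-, and in DKO 91 (36 to 275) and 37 (10 to 178), over all alternatives. Between knockouts, DKO against Mutyh-/- gave 42 (16 to 93) in NeuN+ and 39 (2 to 160) in NeuN-, DKO against Ogg1-/- 42 (25 to 69) in NeuN-, and Ogg1-/- against Mutyh-/- 146 (96 to 521) and 166 (66 to 342). Between WT fractions 14371 genes were called (8615 to 24259), and the effect of a genotype differed between fractions in 7 (2 to 95), 18 (12 to 65) and 19 (7 to 223) genes for Mutyh-/-, Ogg1-/- and DKO. The cause was not tested. With the replicate number as a block, 0 genes of the set were called between genotypes and 4 between fractions. Whether same-numbered NeuN+ and NeuN- libraries are pairs was not established, and the main fits treated them as separate. Their deviations from the group means correlated at 0.010 to 0.322 (mean 0.131). For other numbers of a genotype the correlations were -0.279 to 0.149 (mean -0.065). Of the 12 NeuN+ libraries, 10 correlated best with their own number. Depth limits Cdkn1a, Phlda3 and Eda2r in NeuN+ most.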

Other observations

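Genes of the wider lists also differed between WT fractions, in values not described above. Over all genes 21.6% were called lower and 21.3% higher in NeuN+, and the counts of the lists lie on either side of these shares, so the values describe genes and not lists. The genes were named after their values were seen. Of the 16 further death targets, 5 were lower and 1 higher in NeuN+ by the rule for cell types (edgeR, adjusted p under 0.05 and a log2 difference above 1), with a median of -0.79 against -0.014 over all genes. Among them were Bcl2 and Bcl2l1, which restrain cell death rather than promote it, at -2.05 ± 0.085 (22.4 and 92.9 CPM in NeuN+ and NeuN-) and -1.83 ± 0.11 (61.6 and 219 CPM). Fas (0.0381 and 1.22 CPM) and Ckap2 (0.12 and 1.03 CPM) were counted among the 5 but entered the test only through their NeuN- libraries, so such genes could enter only if they differed. Without genes that passed the filter in NeuN- alone, 3 of 13 were lower and 1 higher, with a median of -0.48, against 17.7% and 20.1% of all genes that passed in each fraction. Of the 16 arrest and repair targets, 2 were lower and 2 higher, fewer than the shares over all genes. Trp53cor1, a long noncoding RNA next to Cdkn1a, was at -5.29 ± 0.18 (0.245 and 9.67 CPM) and Plk3 at -1.78 ± 0.18, whereas Plk2, an activity-induced kinase of neurons, was at 2.59 ± 0.083 (51.6 and 8.55 CPM) and Rprm at 1.08 ± 0.18.

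Of the 18 genes listed as upstream regulators, 3 were lower and 0 higher, again below those shares. Trp73, a relative of p53, was at -3.96 ± 0.13 (2.5 and 39.1 CPM). Hipk2, a kinase that phosphorylates p53, was at -2.68 ± 0.061 (83.3 and 535 CPM), and Chek2 at -1.68 ± 0.19 (1.24 and 3.99 CPM). Trp53bp1 was at 0.89 ± 0.044 (146 and 78.7 CPM), below the limit of 1. Of the 11 genes of the integrated stress response, 3 were higher in NeuN+ (Asns at 2.48 ± 0.079, Chac1 at 2.16 ± 0.26 and Gadd45b at 1.12 ± 0.20) and 3 were lower (Atf3 at -1.64 ± 0.20, Ddit4 at -1.40 ± 0.17 and Ddit3 at -1.05 ± 0.15).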
